A study of Mus musculus with 6 samples.

Results

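Chromatin modifiers and remodelers are the enzymes and subunits that write, remove and read histone marks or slide nucleosomes along DNA. They were taken from the deposited count matrix by name: every symbol that starts with Kdm, Kmt, Setd, Hdac, Sirt, Chd, Arid, Brd or Kat followed by a number, or with Smarc, except Kdm1a, Kdm5c, Kdm5d and Kdm6a. The rule found 95 of the 24411 symbols in the matrix, and it used no measured value. RNA sequencing was done on microglia, the macrophages that reside in the brain, isolated from C57BL/6J mice aged 8 weeks. The groups were Mir137 knockout (labelled gKO, n = 3 libraries), which lack the gene for the microRNA miR-137, and wild type (labelled gWT, n = 3 libraries), with no treatment and no further allele in the labels. The design text mentions 4 mice without assigning them to libraries, and the sources used here give no sex and no number of animals per library. Separate animals are not stated for the libraries of a group, so p-values measure only a spread between libraries that may be technical.

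Histone methyltransferases of the Kmt and Setd families and acetyltransferases of the Kat family add marks to histone tails, Kdm demethylases and Hdac deacetylases remove them, and bromodomain proteins bind acetylated lysines. Chd, Smarca and their partner subunits use ATP to move or evict nucleosomes, and Arid proteins bind DNA as subunits of SWI/SNF or of other complexes. In macrophages, these proteins act with lineage factors at enhancers, where acetylation by Ep300 and removal of acetyl groups by Hdac3 complexes shape inflammatory transcription.

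MicroRNAs repress transcripts whose 3′ UTR pairs with bases 2 to 8 of the mature strand, the seed. The sequence of miR-137-3p is shown because it defines the site searched for in the chromatin genes; capitals mark the seed. It comes from RefSeq (GRCm38.p6 chr3:118433901-118433923, plus strand).
mmu-miR-137-3p: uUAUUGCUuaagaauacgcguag
The complement of the seed, AGCAATA, was searched on the transcript strand of the 3′ UTR of the longest GENCODE M21 transcript. It was found in 15 of 94 chromatin genes with a 3′ UTR (16.0%) and in 1971 of all 20111 genes with one (9.80%), and the median 3′ UTR was 1268 bases in the former set and 965 bases in the latter. The 4 sites below are those of Kdm7a and Chd7, which changed in the comparison without gKO replicate 3, and of Sirt1. Capitals mark the match, and 8 bases are shown on each side.
Kdm7a, bases 165 to 171 of a 6588-base 3′ UTR: acccactcAGCAATAacccttgg
Kdm7a, bases 2698 to 2704: gaatggttAGCAATAcaaaactg
Chd7, bases 589 to 595 of a 1004-base 3′ UTR: cgaggctcAGCAATAatcaggca
Sirt1, bases 884 to 890 of a 1631-base 3′ UTR: atgaggaaAGCAATAggcctctt
The first Kdm7a site and the Chd7 site are followed by an A, and the other 2 shown are not. A match is a description of letters and does not show that the microRNA acts there.

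The deposited counts summed to between 14603884 and 17652976 per library, and 13832 to 15277 symbols had a count above 0. The label microglia was checked against 10 markers (P2ry12, Tmem119, Cx3cr1 and others), whose summed level lay between 38886 and 42575 CPM (counts scaled to library size) in the 6 libraries. Markers of some other cells differed between the groups. The 12 endothelial and mural markers summed to 377 to 505 CPM in gKO and 781 to 1018 CPM in gWT, with 11 of 12 lower in every gKO library. The 8 fibroblast markers summed to 136 to 142 against 311 to 426 CPM (7 of 8 lower), and the 9 neutrophil markers in the matrix to 511 to 988 against 259 to 333 CPM (7 of 9 higher). The 988 CPM was in gKO replicate 3. The 7 astrocyte markers summed to 253 to 306 against 358 to 399 CPM (4 of 7 lower). Monocyte markers summed to 418 to 445 against 365 to 394 CPM (3 of 6 higher). Border macrophage markers summed to 1467 to 1608 against 1381 to 1424 CPM (1 of 6 higher). Oligodendrocyte markers summed to 353 to 419 against 305 to 319 CPM (1 of 6 higher). Ependyma and choroid plexus markers summed to 1211, 977 and 2877 CPM in gKO replicates 1, 2 and 3, and to 2868, 1785 and 1709 CPM in gWT. Erythroid markers summed to 39.8, 39.0 and 132 CPM in gKO and 77.8 to 100 CPM in gWT. Of these markers, only the erythroid Hba-a1 was at 0 in all libraries. The X-inactivation RNA Xist had 0, 0 and 0.57 CPM in gKO and 148, 114 and 107 CPM in gWT. The Y-linked gene Ddx3y had 87.1, 104 and 104 CPM in gKO and 71.9, 75.0 and 76.8 CPM in gWT, all gKO above all gWT. The groups overlapped in the Y-linked Eif2s3y (47.8 to 75.4 against 40.6 to 49.3 CPM) and Uty (16.5 to 28.1 against 20.1 to 23.0 CPM). The part of these differences in the results below was not tested, and sex and genotype cannot be told apart where they differ together. In bulk RNA, fewer cells of a type and less RNA per cell cannot be told apart.

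Over all genes, gKO replicate 3 lay apart from the rest, at 91.5 on the first principal component (39.0% of the variance) where the others lay between -37.7 and -3.45. Among the chromatin genes it stood apart too. On the first component of these genes alone, which held 64.4% of their variance, it lay at 6.00 and the others between -2.20 and -0.40. The median chromatin gene lay 0.39 below its own mean over 6 libraries (log2 CPM) in gKO replicate 3, and 0.12 and 0.19 above it in gKO replicates 1 and 2. In gWT replicates 1, 2 and 3 the median deviations were 0.03, 0.03 and 0.06. Each mean includes gKO replicate 3, so low values there raise the deviations of the other libraries. The comparisons below are therefore made both with all 6 libraries and without gKO replicate 3. Both share the same gWT libraries.

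**Figure D1:**
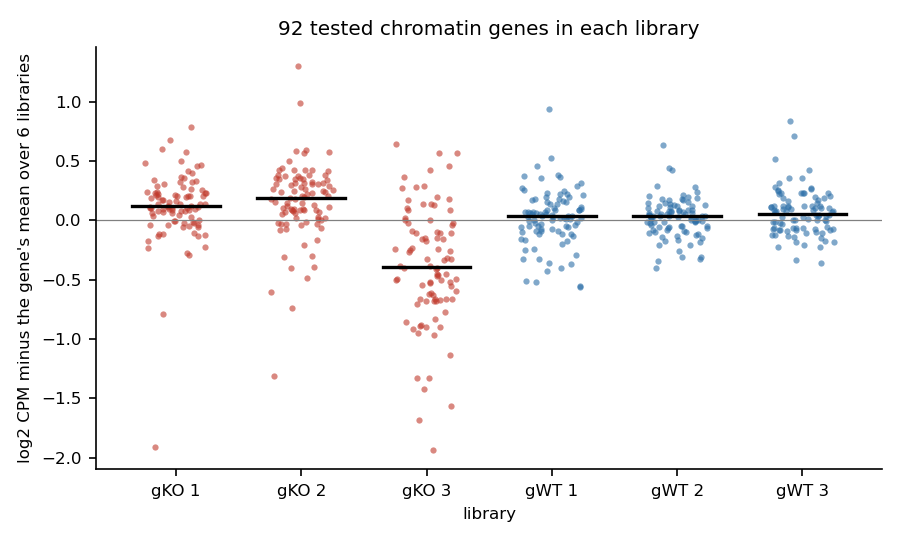
Deviation of each of the 92 tested chromatin genes from its own mean over 6 libraries (y axis, log2 CPM) in each library (x axis; gKO red, gWT blue; black bars are medians). The bar of gKO replicate 3 lies at -0.39, and those of gKO replicates 1 and 2 lie at 0.12 and 0.19.

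gKO replicate 3 was the lowest of the 6 libraries in 58 of the 92 tested chromatin genes (63.0%) and the highest in 9 (9.78%). Over all 13403 tested genes it was the lowest in 31.9% and the highest in 31.3%. It was the lowest library in all 3 Arid1 and Arid2 genes, in 10 of 14 methyltransferases, 10 of 13 demethylases, 8 of 11 Chd genes and 8 of 13 Smarc genes. It was the lowest in 0 of 7 sirtuins, NAD-dependent deacylases, and the highest in Sirt3, Sirt4 and Sirt5. The proteins of these 3 genes lie in mitochondria, and the genes are named here after their values were seen. Their counts per library were low, at 69 to 161 for Sirt3, 23 to 87 for Sirt4 and 25 to 46 for Sirt5. Of the 10 role groups, sirtuins had the shortest median transcript, 2425 bases. The part of length, described below, in the sirtuin values was not tested. gKO replicate 2 was the highest library in 37 of the 92 genes (40.2%, against 18.7% of all tested genes) and gKO replicate 1 in 24 (26.1%, against 15.7%).

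A test was possible for 92 of the 95 genes. Arid3c had 0 counts in all 6 libraries, Kdm4d had 3 counts in total, and Smarca5-ps, annotated as a pseudogene, had 15. Of the tested symbols, Setd8 is Kmt5a in GENCODE M21, and Chd3os is a synonym of the ring-finger gene Rnf227 and no Chd remodeler. Because the rule goes by name, Chd3os stays in the counts of the chromatin genes, of the Chd group and of the genes with a site. Levels of different genes were ranked per kilobase of the longest transcript (RPKM), where the median of the 92 was 10.2 and the range 0.11 to 65.1. The most abundant were Brd2, a reader of acetylated histones (mean 65.1 RPKM over 6 libraries), Sirt2, a mainly cytoplasmic deacetylase (55.0 RPKM), and Chd4, the remodeler of the NuRD complex (53.8 RPKM). Arid1a, the DNA-binding subunit of the BAF form of SWI/SNF (37.2 RPKM), Smarcd2, a further SWI/SNF subunit (35.7 RPKM), and Hdac1, the class I deacetylase of several co-repressor complexes (30.7 RPKM), followed. The order of Brd2, Sirt2 and Chd4 differed between libraries: Sirt2 had 55.0 RPKM in gKO replicate 3, above Brd2 at 44.9 RPKM and Chd4 at 29.4 RPKM there, and Brd2 was the highest of these in the other 5.

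With all 6 libraries, edgeR called 0 of the 92 chromatin genes, where called means a Benjamini-Hochberg adjusted p under 0.05 over all genes tested. Over all 13403 tested genes, 0.395% were called higher and 0.231% lower in gKO. At an unadjusted p under 0.05 there were 5 chromatin genes (5.43%), against 10.9% of all tested genes, a smaller share than the background. Kdm1b, Hdac9 and Sirt1 had positive and Hdac7 and Smarcd2 negative fold changes among these 5; Hdac9 falls outside the rule for named genes and was chosen after its values were seen. DESeq2 called 1 chromatin gene, Kdm1b, as did limma-voom with quality weights, and limma-voom called 0. The shares above are those of edgeR, and the shares of all tested genes called by these other tools are not given here. The median log2 fold change of the chromatin genes was -0.00 and that of all tested genes 0.01, with 45 chromatin genes positive and 47 negative. All gKO libraries lay above all gWT libraries in 5 chromatin genes (5.43%; 10.0% of all tested genes) and below them in 6 (6.52%; 11.3% of all tested genes).

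Without gKO replicate 3, 11 of the 92 chromatin genes passed the test: 9 rose and 2 fell in gKO. The 9 that rose were the methyltransferase Setd2, the demethylases Kdm1b and Kdm7a, the acetyltransferase Kat6a, the remodelers Chd2, Chd7 and Chd8, and the DNA-binding proteins Arid3a and Arid5b. The 2 that fell were the deacetylase Hdac7 and the SWI/SNF subunit Smarcd2. Of 13814 genes tested in this comparison, 3.99% were called higher and 3.82% lower, so 9 of 92 is a larger share than the background and 2 of 92 a smaller share, with no test of either difference. The background was not matched for transcript length, which is described below. At an unadjusted p under 0.05 there were 30 chromatin genes, 25 positive and 5 negative (32.6%, against 23.2% of all tested genes). The median log2 fold change was 0.12, against -0.02 over all tested genes, and 65 of the 92 were positive. Both gKO libraries lay above all gWT libraries in 36 chromatin genes (39.1%; 19.8% of all tested genes) and below them in 7 (7.61%; 20.9% of all tested genes). Upper-quartile scaling, which moved the median of all tested genes to -0.06, gave 4 rises and 3 falls. The counts also changed when a gWT library was left out too. There were 0 and 0 without gWT replicate 2, 1 rise and 0 falls without gWT replicate 3, and 4 and 0 without gWT replicate 1. Shares of all tested genes called under these alternatives are not given here. A change in the chromatin genes therefore cannot be told from a change in all calls of a fit.

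**Figure D2:**
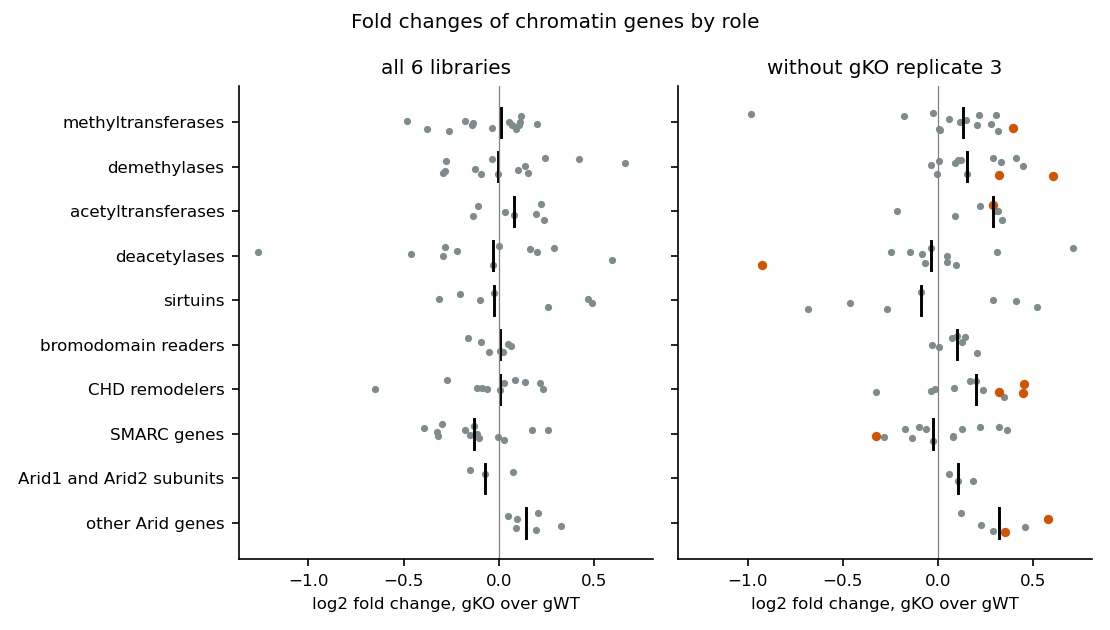
Log2 fold change of gKO over gWT (x axis) of the 92 tested chromatin genes by role (y axis), with all 6 libraries on the left and without gKO replicate 3 on the right; orange points passed the test and black bars are medians. No point passed on the left, and 11 passed on the right, 9 of them to the right of 0.

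Among the 14 methyltransferases, which use S-adenosylmethionine to methylate histones or other proteins, 1 rose and 0 fell without gKO replicate 3. For this and the role groups below, 3.99% of all tested genes were called higher and 3.82% lower in that comparison. At an unadjusted edgeR p under 0.05, the shares over all tested genes were 10.9% with all 6 libraries and 23.2% without gKO replicate 3. Role groups are small, and no difference from these shares was tested. The median log2 fold change of the methyltransferases without gKO replicate 3 was 0.13, with 11 of 14 positive. Both gKO libraries lay above all gWT libraries in 6 of them (42.9%, against 19.8% of all tested genes). In the comparison of all 6 libraries the median was 0.01, with 7 of 14 positive and 0 whose gKO libraries all lay above gWT (10.0% of all tested genes). Setd2 (GRCm38 chr9:110532597-110618633) deposits the trimethyl mark that follows elongating RNA polymerase over gene bodies. Its levels were 153, 175 and 98.5 CPM in gKO replicates 1, 2 and 3 and 133, 115 and 123 CPM in gWT. The first 2 gKO libraries lay above all gWT libraries and the remaining gKO library below all of them. Setd2 rose by a log2 fold change of 0.40 (SE 0.09, edgeR adjusted p = 0.0141) without gKO replicate 3, and its fold change was 0.20 (edgeR adjusted p = 0.793) with it. Kmt2d, a methyltransferase of enhancers with the longest transcript of the set, had 187, 257 and 63.8 CPM in gKO and 235, 187 and 187 CPM in gWT, so that gKO held both the highest and the lowest value. Kmt2a, the founding member of the Mll family, showed the same layout, at 74.0, 114 and 41.7 CPM in gKO and 92.2, 76.6 and 83.5 CPM in gWT. Setd3, which methylates actin rather than histones in its best known role, had 87.9, 97.2 and 101 CPM in gKO and 84.4, 95.0 and 84.8 CPM in gWT, and was highest in gKO replicate 3; it was chosen after its values were seen. Setd1b, a subunit of a COMPASS methyltransferase complex, had 62.5, 62.4 and 20.8 CPM in gKO and 61.6 to 64.0 CPM in gWT, a drop in gKO replicate 3 alone.

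Of 13 tested demethylases, 2 rose and 0 fell without gKO replicate 3, with a median log2 fold change of 0.15 and 11 positive, against a median of -0.01 and 6 positive with all 6 libraries. Kdm1b (chr13:47043499-47085279) is a flavin-dependent demethylase known for its part in setting DNA methylation imprints in the oocyte. Its levels were 41.4, 34.9 and 42.1 CPM in gKO and 24.3, 23.7 and 26.7 CPM in gWT (means 39.5 ± 3.95 and 24.9 ± 1.58, SD, n = 3 each). All 3 gKO libraries lay above all gWT libraries, gKO replicate 3 included, which sets Kdm1b apart from the other 8 chromatin genes that rose. The log2 fold change of Kdm1b was 0.66 (SE 0.16, edgeR adjusted p = 0.161) with all 6 libraries, the smallest adjusted p of the 92, and 0.61 (SE 0.15, edgeR adjusted p = 0.0242) without gKO replicate 3. Exons of Dek, on the opposite strand, cover 9.19% of its exonic bases, and with no strand setting given in the sources used here, reads from that overlap cannot be assigned.

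Kdm7a (chr6:39136623-39206789), a Jumonji demethylase of repressive marks that holds 2 of the sites printed above, had 129, 126 and 70.3 CPM in gKO and 103, 95.4 and 105 CPM in gWT. The first 2 gKO libraries were the highest of the 6 and the remaining one the lowest. It rose by a log2 fold change of 0.32 (SE 0.08, edgeR adjusted p = 0.0307) without gKO replicate 3, against 0.10 (edgeR adjusted p = 0.919) with all 6. Kdm6b, the inflammation-induced demethylase of the Polycomb mark in macrophages, had 105, 76.3 and 42.8 CPM in gKO and 64.9, 67.8 and 70.6 CPM in gWT. The pattern resembled that of Kdm7a, but Kdm6b did not pass the edgeR test, with a log2 fold change of 0.41 (SE 0.12, edgeR adjusted p = 0.0575) without gKO replicate 3 and 0.14 (edgeR adjusted p = 0.909) with all 6 libraries. DESeq2, limma-voom with quality weights and edgeR with no filter on low counts called it higher without gKO replicate 3. Kdm3b and Kdm2b, further histone demethylases, had 166, 193 and 101 CPM and 158, 163 and 118 CPM in gKO, against 163 to 165 CPM and 143 to 158 CPM in gWT. In both, gKO replicate 3 was the lowest library and the other gKO libraries were the highest.

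Of 7 acetyltransferases, 1 rose and 0 fell without gKO replicate 3, with a median log2 fold change of 0.29 and 6 positive, against 0.08 and 5 positive with all 6 libraries. Kat6a (chr8:22859535-22943259), the Myst-family acetyltransferase first described at leukaemic translocations, had 189, 211 and 116 CPM in gKO and 174, 156 and 158 CPM in gWT. It rose by 0.29 on the log2 scale (SE 0.08, edgeR adjusted p = 0.0449) without gKO replicate 3, and with all 6 libraries the value was 0.08 (edgeR adjusted p = 0.930). Its groups overlapped only through gKO replicate 3, the lowest of the 6. Kat7, which acetylates histones at replication origins and promoters, had 116, 98.6 and 82.6 CPM in gKO and 89.1, 83.3 and 87.0 CPM in gWT. It had a log2 fold change of 0.30 (SE 0.10, edgeR adjusted p = 0.0704) without gKO replicate 3 and 0.20 (edgeR adjusted p = 0.716) with all 6 libraries. Kat7 was called higher without gKO replicate 3 only with no filter on low counts or when gKO replicate 2 was left out too.

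The 11 zinc-dependent deacetylases had a median log2 fold change of -0.03 in both comparisons, and 1 fell and 0 rose without gKO replicate 3. Hdac7 (chr15:97792664-97844502), a class IIa deacetylase that binds Mef2 factors and is needed in endothelial cells and thymocytes, had 11.4, 8.78 and 3.53 CPM in gKO and 22.4, 18.1 and 16.7 CPM in gWT (means 7.90 ± 4.00 and 19.1 ± 2.96, SD, n = 3 each). The groups did not overlap, and gKO replicate 3 was the lowest of the gKO libraries. Hdac7 fell by 0.92 on the log2 scale (SE 0.23, edgeR adjusted p = 0.0257) without gKO replicate 3. Including all 6 libraries, its log2 fold change was -1.27 (SE 0.39, edgeR adjusted p = 0.280), the lowest of the 92. The endothelial and mural markers, at 377 to 505 CPM in gKO and 781 to 1018 CPM in gWT, were lower in the same libraries and also lowest in gKO replicate 3. Their part in the Hdac7 difference was not tested.

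Hdac9, the class IIa relative of Hdac7, went the other way in level, with 18.04, 22.7 and 15.2 CPM in gKO and 10.2, 14 and 12.8 CPM in gWT. All gKO libraries lay above all gWT libraries, but Hdac9 was not called by edgeR as fitted, with log2 fold changes of 0.59 (SE 0.24, edgeR adjusted p = 0.410) with all 6 libraries and 0.71 (SE 0.22, edgeR adjusted p = 0.0631) without gKO replicate 3. The class I enzymes, catalytic subunits of co-repressor complexes, differed among themselves in level. Hdac1 had 61.5, 55.4 and 51.8 CPM in gKO and 72.2, 72.1 and 62.3 CPM in gWT, with no overlap and a log2 fold change of -0.24 (SE 0.11, edgeR adjusted p = 0.211) without gKO replicate 3 and -0.29 (edgeR adjusted p = 0.513) with it. Its close paralog Hdac2 had 46.7, 47.0 and 62.0 CPM in gKO and 39.3, 52.3 and 43.6 CPM in gWT, and Hdac3 had 40.5, 41.9 and 50.6 CPM in gKO and 41.2, 41.3 and 36.1 CPM in gWT. Both overlapped, and both were highest in gKO replicate 3. Hdac5, a further class IIa member, had 148, 126 and 81.2 CPM in gKO and 133, 146 and 154 CPM in gWT.

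None of the 7 sirtuins was called by edgeR in either comparison. At an unadjusted p under 0.05 there was 1 with all 6 libraries (14.3%, against 10.9% of all tested genes). Without gKO replicate 3 there were 2 (28.6%, against 23.2% of all tested genes). Sirt1, a nuclear deacetylase that acts on histones and transcription factors, had 29.3, 44.3 and 32.0 CPM in gKO and 23.7, 26.4 and 26.2 CPM in gWT. All gKO libraries lay above all gWT libraries, with log2 fold changes of 0.47 (SE 0.20, edgeR adjusted p = 0.443) with all 6 libraries and 0.52 (SE 0.18, edgeR adjusted p = 0.0896) without gKO replicate 3. Sirt2 had 108, 101 and 117 CPM in gKO and 119, 123 and 132 CPM in gWT, all gKO below all gWT, with a log2 fold change of -0.27 (SE 0.09, edgeR adjusted p = 0.0753) without gKO replicate 3 and -0.20 (edgeR adjusted p = 0.629) with it. Without gKO replicate 3, Sirt2 was called lower under upper-quartile scaling, and Sirt1 higher when gKO replicate 1 was left out too. Sirt7, the nucleolar member, had 78.2, 89.6 and 80.2 CPM in gKO and 87.6, 87.7 and 90.3 CPM in gWT.

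**Figure D3:**
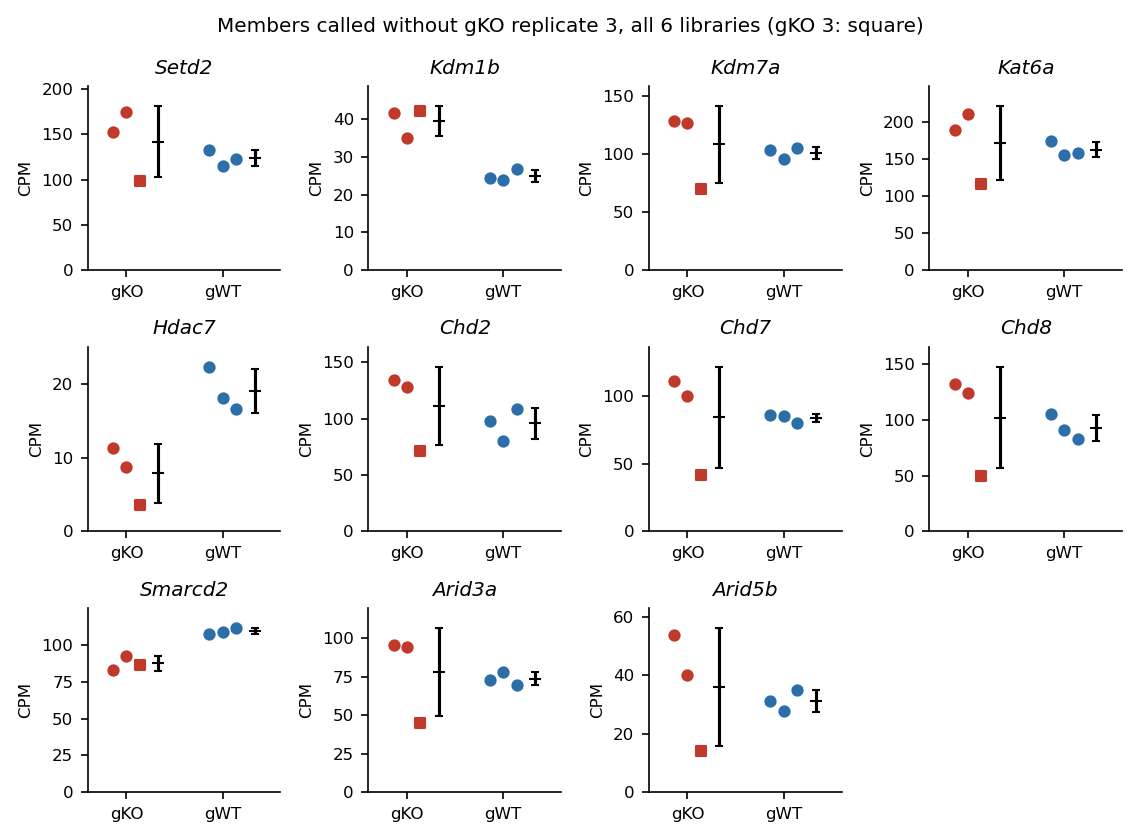
CPM (y axes, from 0) of the 11 chromatin genes that passed the test without gKO replicate 3, 1 panel a gene, in the gKO (red; square is replicate 3) and gWT (blue) libraries, with the mean and SD over 3 libraries beside each group. Only in Kdm1b, Hdac7 and Smarcd2 do the 3 gKO points all lie on 1 side of the gWT points; in the other 8 panels the square is the lowest point.

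None of the 7 bromodomain genes named Brd was called by edgeR in either comparison, with 0 and 1 at an unadjusted p under 0.05. Brd2 had 333, 369 and 209 CPM in gKO and 302, 304 and 299 CPM in gWT. The gWT libraries lay close together while the gKO libraries lay on both sides of them. The log2 fold change of Brd2 was 0.21 (SE 0.07, edgeR adjusted p = 0.0719) without gKO replicate 3, where DESeq2 called it higher, and 0.0087 (edgeR adjusted p = 0.993) with all 6 libraries. Brd8, a subunit of an acetyltransferase complex, had 47.1, 49.6 and 34.9 CPM in gKO and 47.3, 50.4 and 49.5 CPM in gWT.

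Of the 11 symbols starting with Chd, 3 rose and 0 fell without gKO replicate 3, with a median log2 fold change of 0.20 and 8 positive, against 0.01 and 6 positive with all 6 libraries. Chd8 (chr14:52198151-52257780), a remodeler known as an autism risk gene and as a repressor of Wnt targets, had 132, 124 and 49.7 CPM in gKO and 106, 90.5 and 82.5 CPM in gWT. The fold change of Chd8 on the log2 scale was 0.46 (SE 0.10, edgeR adjusted p = 0.0152) without gKO replicate 3 and 0.14 (edgeR adjusted p = 0.921) with it. Chd7 (chr4:8690406-8867659), the remodeler mutated in CHARGE syndrome, had 111, 99.99 and 41.6 CPM in gKO and 85.7, 85.3 and 80.4 CPM in gWT. Its log2 fold change was 0.32 (SE 0.09, edgeR adjusted p = 0.0447) without gKO replicate 3 and 0.01 (edgeR adjusted p = 0.997) with it; under upper-quartile scaling of all 6 libraries it was -0.04. In both genes the gKO library left out lay far below the gWT libraries and the others above them.

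Chd2 (chr7:73426638-73541830), a remodeler linked to epileptic encephalopathy, had 135, 128 and 71.4 CPM in gKO and 98.0, 80.6 and 108 CPM in gWT. It rose by a log2 fold change of 0.45 (SE 0.11, edgeR adjusted p = 0.0236) without gKO replicate 3, against 0.22 (edgeR adjusted p = 0.810) with it. Exons of the noncoding gene 1810026B05Rik, on the same strand, cover 18.4% of its exonic bases, so its count is uncertain. The NuRD remodelers did not pass the edgeR test as fitted. Chd4 had 412, 371 and 197 CPM in gKO and 401, 372 and 409 CPM in gWT, and Chd3 had 45.9, 45.0 and 17.0 CPM in gKO and 62.0, 52.4 and 55.2 CPM in gWT. All gKO libraries of Chd3 lay below all gWT libraries, with a log2 fold change of -0.32 (SE 0.12, edgeR adjusted p = 0.120) without gKO replicate 3 and -0.65 (edgeR adjusted p = 0.542) with it. Chd3 was called lower without gKO replicate 3 after removal of the length trend described below. Chd9, a relative of Chd7 and Chd8, had 177, 213 and 136 CPM in gKO and 181 to 184 CPM in gWT.

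Of 13 tested Smarc genes, which encode ATPases and core subunits of SWI/SNF and related remodelers, 1 fell and 0 rose without gKO replicate 3, with a median log2 fold change of -0.02, against -0.13 with all 6 libraries. Smarcd2 (chr11:106263179-106272972), a SWI/SNF subunit known for its part in granulocyte development, had 83.0, 92.5 and 86.5 CPM in gKO and 107, 108 and 111 CPM in gWT (means 87.3 ± 4.81 and 109 ± 2.12, SD, n = 3 each). The groups did not overlap, and gKO replicate 3 lay between the other gKO libraries. Its log2 fold change was -0.32 in both comparisons (SE 0.12, edgeR adjusted p = 0.380 with all 6 libraries; SE 0.09, edgeR adjusted p = 0.0385 without gKO replicate 3). The ATPase of SWI/SNF, Smarca4, had 171, 166 and 81.4 CPM in gKO and 178, 168 and 179 CPM in gWT, with a log2 fold change of -0.06 (SE 0.07, edgeR adjusted p = 0.682) without gKO replicate 3 and -0.33 (edgeR adjusted p = 0.723) with it. The ATPase of ISWI complexes, Smarca5, had 129, 126 and 92.3 CPM in gKO and 111, 118 and 119 CPM in gWT, with a log2 fold change of 0.13 (SE 0.08, edgeR adjusted p = 0.369) without gKO replicate 3 and -0.0019 (edgeR adjusted p = 0.998) with it.

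Of the Arid1 and Arid2 subunits that give SWI/SNF its BAF and PBAF forms, none of 3 was called by edgeR in either comparison, with 0 at an unadjusted p under 0.05 in both. Arid1a had 322, 349 and 196 CPM in gKO and 337, 298 and 326 CPM in gWT, and Arid2 had 88.5, 97.3 and 69.9 CPM in gKO and 88.0, 76.3 and 78.9 CPM in gWT. Of the 6 other tested Arid genes, 2 rose and 0 fell without gKO replicate 3, all 6 were positive, and their median log2 fold change of 0.32 was the highest of the 10 role groups. With all 6 libraries the median was 0.15, all 6 genes were positive, and edgeR called 0, with 0 below an unadjusted p of 0.05.

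Arid3a (chr10:79927043-79955018), a B-cell transcription factor also expressed in myeloid cells, had 95.4, 94.1 and 45.3 CPM in gKO and 73.0, 78.2 and 69.7 CPM in gWT. For Arid3a the log2 fold change was 0.35 (SE 0.09, edgeR adjusted p = 0.0340) without gKO replicate 3 and 0.09 (edgeR adjusted p = 0.939) with all 6 libraries. Arid5b (chr10:68092520-68278740), which binds the demethylase Phf2, had 53.9, 40.1 and 14.1 CPM in gKO and 31.2, 27.7 and 35.1 CPM in gWT. Its log2 fold change was 0.58 (SE 0.16, edgeR adjusted p = 0.0384) without gKO replicate 3 and 0.20 (edgeR adjusted p = 0.908) with it. In both genes gKO replicate 3 was the lowest library. Arid3b, the paralog of Arid3a, had 41.9, 49.2 and 32.8 CPM in gKO and 34.1, 29.6 and 35.1 CPM in gWT, and was not called by edgeR as fitted (log2 fold change 0.46, SE 0.14, edgeR adjusted p = 0.0608 without gKO replicate 3; 0.33, edgeR adjusted p = 0.594 with it). Hdac9 and Arid3b were called higher without gKO replicate 3 with no filter on low counts and when gKO replicate 1 was left out too. Arid4a, a subunit of the Sin3 deacetylase complex, had 62.7, 80.0 and 42.8 CPM in gKO and 54.4, 58.3 and 60.7 CPM in gWT.

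Chromatin genes have long transcripts, and their deviations moved with length. The median longest transcript of the 92 was 5174 bases (range 1579 to 19823), against 3437 bases over 13324 tested genes with a length. Across the 92 genes, which are not independent replicates and share each library's depth, Spearman's rho between length and the deviation of a library was -0.57 in gKO replicate 3 and 0.56 in gKO replicate 2. It was 0.20 in gKO replicate 1 and 0.42, -0.26 and -0.06 in gWT replicates 1, 2 and 3. Over all genes with a length the values were -0.50 in gKO replicate 3, 0.30 in gKO replicate 2, 0.24 in gKO replicate 1, and 0.23, -0.04 and 0.08 in the gWT libraries. The sign was the same in the chromatin genes and in all genes for 5 of the 6 libraries, gWT replicate 3 being the exception. Deviations are from a mean over the same libraries, so a fall with length in gKO replicate 3 pushes the others towards a rise.

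**Figure D4:**
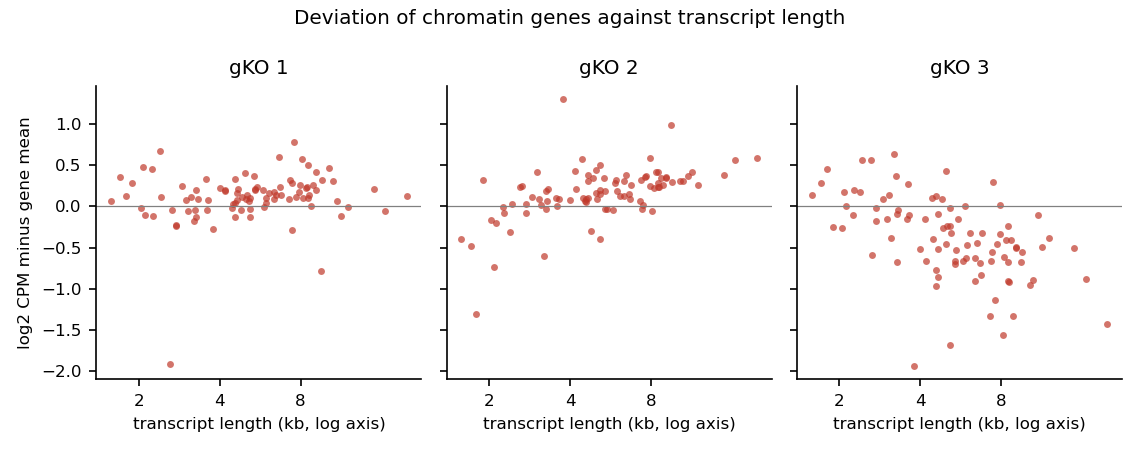
Deviation of each tested chromatin gene from its mean over 6 libraries (y axis, log2 CPM) against the length of its longest transcript (x axis, kilobases, log scale) in gKO replicates 1, 2 and 3. Points fall with length in gKO replicate 3 (Spearman's rho -0.57) and rise with it in gKO replicate 2 (0.56). The mean includes every library, so a low value in gKO replicate 3 raises the deviations of the others.

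Among the 46 chromatin genes at or above the median length, the median deviation in gKO replicate 3 was -0.58, and that library was the lowest of 6 in 41. Among the 46 shorter ones the median was -0.10, and it was the lowest in 17. All tested genes split at the same length had medians of -0.43 and 0.11 in that library. The comparison without gKO replicate 3 moved with length as well. Its median log2 fold change was 0.15 in the longer and 0.07 in the shorter chromatin genes. For all tested genes split at the same length, it was 0.07 and -0.05. Of the 9 rises, 8 were among the longer chromatin genes, the exception being Kdm1b, at 4987 bases. Of the 2 falls, Hdac7 was in the longer group, at 5179 bases, and Smarcd2 in the shorter, at 2747 bases. Spearman's rho between length and that fold change was 0.29 across the chromatin genes and 0.19 across all genes with a length. With each library's trend with length removed, edgeR called 4 chromatin genes higher and 2 lower without gKO replicate 3, and 5 of the 11 calls were kept, those of Chd2, Chd8, Hdac7, Kdm1b and Setd2, with Chd3 called in addition. The share of all tested genes called in that fit is not given here. What part of the remaining differences length accounts for was not tested.

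Of the 15 genes with an AGCAATA site, 2 rose without gKO replicate 3, Chd7 and Kdm7a (13.3%), and 9 of the 77 without a site changed (11.7%). The shares called over all tested genes were 9.08% of 1376 with a site and 7.78% of 11959 without one. The median log2 fold changes were 0.15 with a site and 0.11 without one. Over all tested genes with a 3′ UTR, the medians were 0.05 with a site and -0.03 without. In the comparison of all 6 libraries, the medians of the chromatin genes were 0.01 with a site and -0.00 without one, and 8 of 15 genes with a site were positive. Sirt1, with 1 site, had a positive fold change in both comparisons and did not pass the test in either. The same letters were searched on both strands of the RefSeq promoter windows (250 bases before to 50 after the start). They were found in 4 of 71 chromatin genes with an entry (5.63%) and in 674 of all 27025 genes with one (2.49%).

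Partners and relatives of these proteins that carry other names were taken from 11 lists of 192 genes, of which 185 were in the matrix and 183 were tested. EdgeR called 0 of the 183 with all 6 libraries, with a median log2 fold change of 0.02. At an unadjusted p under 0.05 there were 10 (5.46%, against 10.9% of all tested genes). DESeq2 called 3 and limma-voom with quality weights 4, all higher, and their shares over all tested genes are not given here. Without gKO replicate 3, 12 rose and 0 fell (6.56% called), beside 3.99% called higher and 3.82% called lower of all tested genes; the median was 0.09 and 120 were positive. The number that rose was 3 without gWT replicate 3, 4 without gWT replicate 2 and 9 without gWT replicate 1. Upper-quartile scaling gave 7 rises and 1 fall. For these alternatives too, shares of all tested genes called are not given here.

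**Figure D5:**
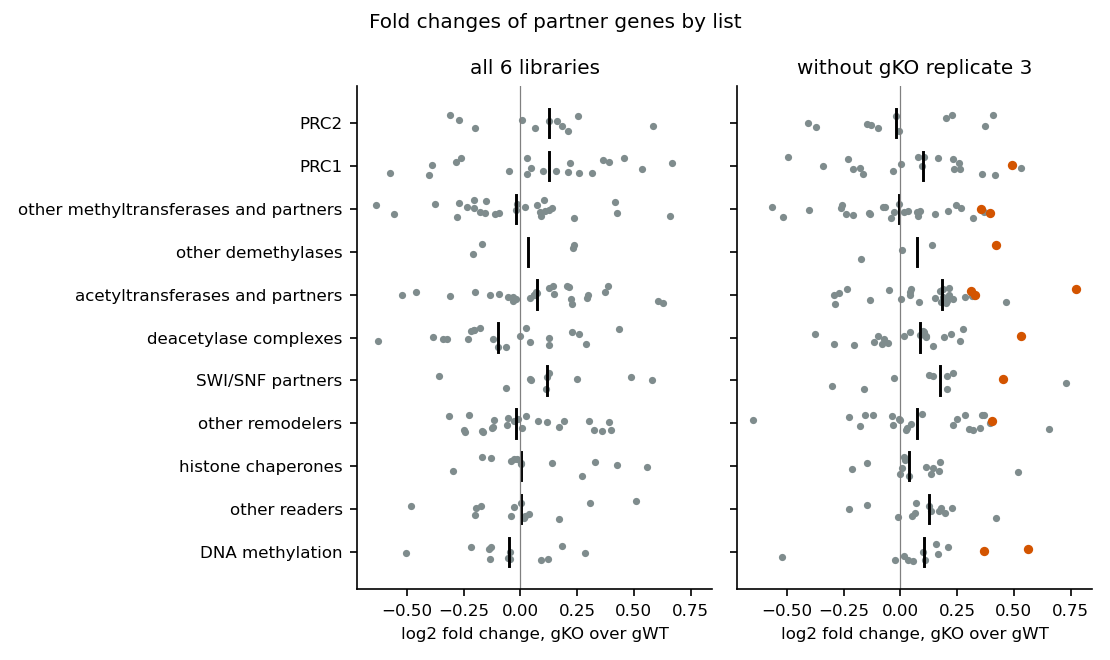
Log2 fold change of gKO over gWT (x axis) of 183 partner genes in 11 lists (y axis), with all 6 libraries on the left and without gKO replicate 3 on the right; orange points passed the test and black bars are medians. The 12 orange points on the right all lie above 0, the farthest at 0.77 (Jade2).

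The acetyltransferase list held 3 of the 12. Jade2, a scaffold of the Kat7 complex, had 193, 202 and 137 CPM in gKO and 115, 115 and 114 CPM in gWT, all gKO above all gWT. Its log2 fold change of 0.77 (SE 0.07, edgeR adjusted p = 1.64e-05 without gKO replicate 3) was the largest among the partners. Its edgeR adjusted p was 0.184 with all 6 libraries. Ep300, the acetyltransferase that marks active enhancers, had 177, 192 and 92.9 CPM in gKO and 158, 135 and 150 CPM in gWT and rose by a log2 fold change of 0.31 (SE 0.08, edgeR adjusted p = 0.0362) without gKO replicate 3, against 0.06 (edgeR adjusted p = 0.956) with all 6 libraries. Its paralog Crebbp had 62.9, 75.1 and 16.4 CPM in gKO and 72.4, 59.9 and 80.5 CPM in gWT, with overlapping groups. Msl2, of the Kat8 complex, rose by a log2 fold change of 0.33, against 0.23 with all 6 libraries.

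Tbl1xr1, a subunit of the Hdac3 co-repressor complex, had 154, 131 and 113 CPM in gKO and 104, 92.1 and 97.9 CPM in gWT, all gKO above all gWT (log2 fold change 0.53, SE 0.09, edgeR adjusted p = 0.00330 without gKO replicate 3). Ss18, a BAF subunit, had 130, 153 and 148 CPM in gKO and 113, 99.6 and 95.4 CPM in gWT, again without overlap (0.45, SE 0.10, edgeR adjusted p = 0.0120). Rnf2, the ubiquitin ligase of Polycomb repressive complex PRC1, had 105, 106 and 145 CPM in gKO and 73.9, 79.7 and 70.6 CPM in gWT (0.49, SE 0.09, edgeR adjusted p = 0.00494). These 3 genes and Jade2 had their gKO libraries above all gWT libraries with gKO replicate 3 included, and with all 6 libraries the edgeR adjusted p of Tbl1xr1, Ss18 and Rnf2 was 0.328, 0.203 and 0.164. Of the other partner genes that rose, Jmjd1c, a Jumonji protein, had 286, 322 and 186 CPM in gKO and 221 to 230 CPM in gWT (0.42, SE 0.07, edgeR adjusted p = 0.00214 without gKO replicate 3; 0.23, edgeR adjusted p = 0.746 with it).

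Also among those that rose without gKO replicate 3 were the methylcytosine oxidase Tet2 (log2 fold change 0.56), the remodeler Atrx (0.40), the coactivator Ncoa6 (0.39) and the methyltransferase Nsd1 (0.35). Their log2 fold changes with all 6 libraries were 0.28 for Tet2, 0.30 for Atrx, 0.14 for Ncoa6 and 0.09 for Nsd1, and none of these passed the edgeR test. Tet2 had 38.2, 47.6 and 19.5 CPM in gKO and 31.7, 28.4 and 26.4 CPM in gWT, so gKO replicate 3 was again the lowest library. Ezh2, the catalytic subunit of PRC2 and a known target of miR-137 in other cells, had 20.7, 21.3 and 25.1 CPM in gKO and 24.7, 27.3 and 28.9 CPM in gWT and was not called (log2 fold change -0.37, SE 0.16, edgeR adjusted p = 0.188 without gKO replicate 3; -0.27, edgeR adjusted p = 0.639 with it). The maintenance DNA methyltransferase Dnmt1 had 119, 102 and 66.7 CPM in gKO and 110, 108 and 118 CPM in gWT. In the authors' deposited tables of changed genes, which list 75 higher and 201 lower in gKO, 0 of the 95 chromatin genes and 0 of the partner genes appear.

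The 3 X-linked chromatin genes are given beside the Xist values above. Hdac6, a mainly cytoplasmic deacetylase of tubulin, had 31.5, 30.4 and 24.4 CPM in gKO and 27.3, 32.4 and 26.8 CPM in gWT. Hdac8, a class I deacetylase that acts on cohesin, had 7.27, 7.48 and 9.05 CPM in gKO and 5.83, 7.89 and 10.6 CPM in gWT. Smarca1, an ISWI ATPase of neurons, had 0.89 to 1.20 CPM in gKO and 1.06 to 1.31 CPM in gWT. The groups overlapped in all 3, and none was called by edgeR in either comparison, with 0 at an unadjusted p under 0.05. These genes were chosen for their chromosome after their values were seen.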

How the data were processed

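Expected counts per gene symbol for 6 libraries were deposited by the authors. STAR 2.7.9a, RSEM, DESeq2 and the builds GRCm38 and mm10 are named in the submitters' processing notes, with no role; for the annotation and the strand, no setting is given in the sources used here. The authors' deposited tables of changed genes hold, per the file headers, p-values, log2 fold changes with their standard errors and statistics (scores), and a signal, the mean normalized count; only their gene names were used.

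After rounding, edgeR 4.0.16 (R 4.3.3) was applied (TMM, default filter on low counts, robust quasi-likelihood test on genotype, Benjamini-Hochberg adjustment over all genes tested). The procedure was also run on simulated counts. These held no length trend and no library set apart, so that run does not cover these features of the data. A standard error is the size of the log2 fold change over the square root of the F statistic. CPM values were scaled by TMM, and log CPM used a prior count of 2. Lengths, 3′ UTRs and coordinates came from GENCODE M21 (GRCm38). Of the 24411 symbols, 23368 matched by name and 667 by synonym.

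The chromatin genes, partner lists and tests were chosen with earlier results of these data known. Named genes were every called gene, per role the 2 with the highest mean CPM and the 1 with the smallest p, and fixed genes of interest. Replicates differed by more than sampling noise. Chi-square per degree of freedom was 100.64 and 100.69 in the pairs of gKO replicate 3 with gKO replicates 1 and 2. In the other pairs within a group it was 6.49 to 13.3. Alternatives used DESeq2 1.42.0 and limma 3.58.1. Some genes that the naming rule picks are not reported here.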

Additional observations from a re-analysis of the deposited data

How the results depend on the processing

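With all 6 libraries, 1 chromatin gene was higher by DESeq2 and 1 by limma-voom with quality weights, Kdm1b in both. The other scalings, filters and tests tried gave 0. Shares of all tested genes called under these alternatives are not given here. Leaving out each library in turn gave 0 to 9 higher and 0 to 2 lower, the upper values without gKO replicate 3, and a median log2 fold change of -0.10 to 0.12. Without gKO replicate 3, the 9 rises became 4 under upper-quartile scaling (median log2 fold change 0.081), 17 with no filter on low counts, and 4 with the length trend removed (median 0.072). The 2 falls became 0 under limma-voom with quality weights. Leaving out a further library gave 0 to 15 rises, 0 to 1 falls and medians of 0.10 to 0.13; where 1 gKO library was left, it was assumed to vary like gWT.

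Deviations of same-numbered gKO and gWT libraries correlated at 0.05, -0.05 and 0.02, and those of differently numbered ones at -0.097 to 0.094. The deviations were centred within each group, and gKO replicate 3 lay far from its group. The check therefore cannot decide whether the replicate numbers pair the samples. With the replicate number as a block, 5 chromatin genes rose and 1 fell without gKO replicate 3, all among the 11 calls, and 0 were called with all 6 libraries, where the block left 18 of 84 calls over all genes.

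With all 6 libraries the small fold change of Chd7 changed sign under upper-quartile scaling (-0.036), limma-voom (-0.10), no filter (-0.0034) and the replicate block (-0.11), and that of Ep300 under limma-voom (-0.0028) and the block (-0.0019). Brd2 changed sign under upper-quartile scaling (-0.033), limma-voom (-0.031), no filter (-0.0029) and the block (-0.032), and Smarca5 under limma-voom with quality weights (0.094), a 1 CPM filter (0.00036) and removal of the length trend (0.069). Leaving out each library in turn moved the log2 fold change from -0.24 to 0.32 for Chd7, -0.081 to 0.35 for Arid3a, -0.21 to 0.58 for Arid5b, -0.10 to 0.46 for Chd8, -0.10 to 0.29 for Kat6a, -0.045 to 0.32 for Kdm7a, -0.19 to 0.41 for Kdm6b, -0.13 to 0.31 for Ep300, -0.18 to 0.35 for Nsd1, -0.072 to 0.39 for Ncoa6, -0.16 to 0.21 for Brd2 and -0.088 to 0.13 for Smarca5, with each highest value reached without gKO replicate 3. Of the fold changes of single genes under all alternatives, 822 kept their direction and side of the threshold, 95 lost a call, 48 gained one and 35 changed sign; the cause was not tested.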
